A study of Mus musculus with 19 samples.

Results

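Transcripts for the proteins of the cytosolic ribosome were examined in brain endothelial cells (bECs) of socially defeated mice. The members were the genes whose array row carried 1 symbol of the form Rpl or Rps with a number, or Rplp0, Rplp1, Rplp2 or Rpsa. Names ending in -ps were left out, and where a gene had several rows the row with the highest mean was used. This gave 43 genes, 25 of the large and 18 of the small subunit, from 49 of the 65956 rows tested. RefSeq lists 40 of them as protein coding and 3 as pseudogenes (Rpl6l, Rps3a2 and Rps3a3). RefSeq holds 85 protein-coding symbols that match the rule, and 45 of these have no row of their own here. Of those 45, 38 appear only in rows that carry several symbols, among them Rps6, Rps3, Rpl5, Rpl3, Rpl10, Rpl13a, Rplp1, Rplp2 and Rps27a, and the values below do not cover them.

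The arrays came from 19 male wild-type C57BL/6N mice, 8–10 weeks old by the methods, in 5 groups with 1 array per animal. HC mice (n = 4, animals 1, 2, 5 and 6) lived in pairs across a partition and were never defeated. The stressed mice were housed beside an aggressive CD-1 male that attacked them once a day, for 1 day (CSD1, n = 3, animals 4, 18 and 19), 7 days (CSD7, n = 4, animals 9, 16, 17 and 25) or 14 days (CSD14, n = 4, animals 12 to 15). A further group returned to home cage housing for 7 days after 14 days of defeat (CSDrec, n = 4, animals 28 to 31). The defeated mice were picked for behavioral scores of susceptibility, except CSD1, which was not phenotyped, so CSD7, CSD14 and CSDrec describe susceptible animals only. CD31+ cells were sorted from brain without cerebellum, brainstem and meninges, and no transgene or deletion was used. The methods give 16 h after the last defeat, which can apply to CSD1, CSD7 and CSD14 only. CSDrec mice had 7 days of recovery, and HC mice had no defeat. One field of the labels marks HC animal 5 as stressed although its title says home cage, and it was kept as HC. Titles of the CSD1, CSD7 and CSD14 arrays carry 10 min, while the methods state 5 min a day, and which holds is not known.

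A ribosome is built of a large subunit, which joins amino acids, and a small subunit, which reads the mRNA. Each subunit holds ribosomal RNA and a fixed set of proteins, which cells make in balance. Many of their mRNAs begin with a C followed by a run of pyrimidines, the 5′ terminal oligopyrimidine (TOP) tract, through which the mTOR kinase and the protein Larp1 set their translation. Ribosomal protein mRNAs are among the most abundant and most evenly expressed in a cell. In endothelial cells, as in other cells, growth factor signaling through mTOR raises their translation.

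The start-site windows below are shown because the TOP tract is the element these genes share. RefSeq promoter entries (assembly GRCm38.p6, 250 bases before and 50 after an annotated start) matched 35 of the 43 genes with 43 entries. The 30 bases run from 10 before the start to 20 from the start on, and capitals mark the longest run of C and T that begins with a C within 5 bases of the start, if at least 5 long.
Rpl38 (chr11:114668570-114668599, plus strand): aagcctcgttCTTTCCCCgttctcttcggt
Rpl19 (chr11:98026700-98026729, plus strand): aaacgCCCTCactgcgcatgtgcgccgcgg
Rps9 (chr7:3704031-3704060, plus strand): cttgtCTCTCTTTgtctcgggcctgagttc
Rpl35 (chr2:39005112-39005141, minus strand): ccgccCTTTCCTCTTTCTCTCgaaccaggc
Rps18 (chr17:33955646-33955675, minus strand): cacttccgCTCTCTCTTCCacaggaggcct
Rpl4 (chr9:64173377-64173406, plus strand): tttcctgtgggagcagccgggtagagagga
Rplp0 (chr5:115559457-115559486, plus strand): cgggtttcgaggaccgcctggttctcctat
Rpl7l1 (chr17:46782637-46782666, minus strand): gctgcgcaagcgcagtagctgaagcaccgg
Rps3a1 (chr3:86142649-86142678, minus strand): gccggaagggcgaaagagcaagggtcacgt
Rps4x (chrX:102189372-102189401, minus strand): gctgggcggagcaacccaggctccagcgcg

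In Rpl38 the tract began at the annotated start itself, while Rpl4, Rplp0, Rpl7l1, Rps3a1 and Rps4x had none that began within 5 bases of the start. Over the 43 entries, 16 held such a tract (37.2%), in 15 genes, against 6027 of all 32851 entries (18.3%). It was found in 9 of 22 large and 6 of 13 small subunit genes with an entry. The sequence CCGGAAG, searched on both strands over the 300 bases and bound by factors of the Ets family, was in 16 of the 43 entries (37.2%) and 8.86% of all. Its reverse complement CTTCCGG begins with a pyrimidine run, so both searches can hit the same bases. AAGATGGC, a Yy1 sequence, was in 2 entries (4.65%, all entries 2.75%), and TATAAA in 6 (14%, all entries 13.6%). These counts describe letters near annotated starts, which can lie some bases from the start used in bECs.

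Every one of the 43 genes lay above the receptor level, a log2 signal of 3.10 that is the 95th percentile of 1758 rows for olfactory, vomeronasal and taste receptors. All values are log2 signals of a row, differences are log2 differences of group means, and an adjusted p is limma's Benjamini-Hochberg value over all tested rows, called below 0.05. Means over the 19 animals ran from 3.29 for Rpl3l, the muscle paralog of Rpl3, to 10.33 for Rpl41, with Rpl4 and Rpl12 next, and rows are not set against each other since probes differ. The arrays of HC animals 1 and 2 stood apart. On them the rows that should give signal were separated from those that should not with an area under the curve of 0.830 to 0.845, against 0.891 to 0.929 on the other 17 arrays, and the SD of all values was 1.54 to 1.58 against 1.72 to 1.84. In these 2 animals the mean was below that of HC animals 5 and 6 for 23 of 25 large and 17 of 18 small subunit genes, and for 20 of the 43 they were the lowest of all 19 animals. Counts, medians and the differences of named ribosomal protein genes are therefore given with and without them. The endothelial markers (all 10 of 10 above the receptor level, such as Cldn5 and Cdh5) had a mean log2 signal of 9.99 to 10.23 in HC and 10.13 to 10.53 in stressed animals. Microglia markers (9 of 10 with a row, all above the receptor level) were at 4.30 to 4.55 in HC and at 4.70 to 6.70 in stressed animals, with no overlap. Astrocyte markers were at 3.73 to 3.94 in HC and 3.93 to 6.17 in stressed animals, and neuron markers at 4.02 to 4.23 and 4.33 to 5.64. Pericyte markers (6 of 6 with a row) were at 4.87 and 4.86 in HC animals 1 and 2, below all other arrays, and at 7.74 and 7.53 in HC animals 5 and 6, above all 15 stressed animals at 5.40 to 7.35. Leaving out HC animals 1 and 2 thus leaves the HC animals with the highest pericyte signal. Border macrophage markers were at 3.15 to 3.26 in HC and reached 5.00 in CSDrec, and the only red cell marker with a row was at 4.92 to 5.51 in HC and reached 7.72 in CSD7. The part of these cells in the results below was not tested. In sorted bulk cells, a change in the mix of cells and a change of RNA per cell cannot be told apart.

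The first question was whether ribosomal protein transcripts moved with defeat. The mean of the 25 large subunit genes was 6.80, 6.75, 6.94 and 7.06 in HC animals 1, 2, 5 and 6, and 6.93, 7.28 and 7.24 in CSD1 animals 4, 18 and 19. It was 7.13, 7.19, 6.95 and 7.04 in CSD7 animals 9, 16, 17 and 25. CSD1 animals 18 and 19 lay above every HC animal, while CSD1 animal 4 lay below HC animals 5 and 6. In CSD14 it spanned 7.02 to 7.17 and in CSDrec 6.96 to 7.07, both overlapping HC. The mean of the 18 small subunit genes was 6.64, 6.67, 6.89 and 7.01 in HC animals 1, 2, 5 and 6. It spanned 6.79 to 7.15 in CSD1, 6.75 to 7.01 in CSD7, 6.83 to 6.99 in CSD14 and 6.84 to 6.94 in CSDrec. For the small subunit, CSD14 and CSDrec lay within the range that HC spanned, the highest CSD7 and HC animals were equal to 2 decimals, and CSD1 extended above HC.

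**Figure D1:**
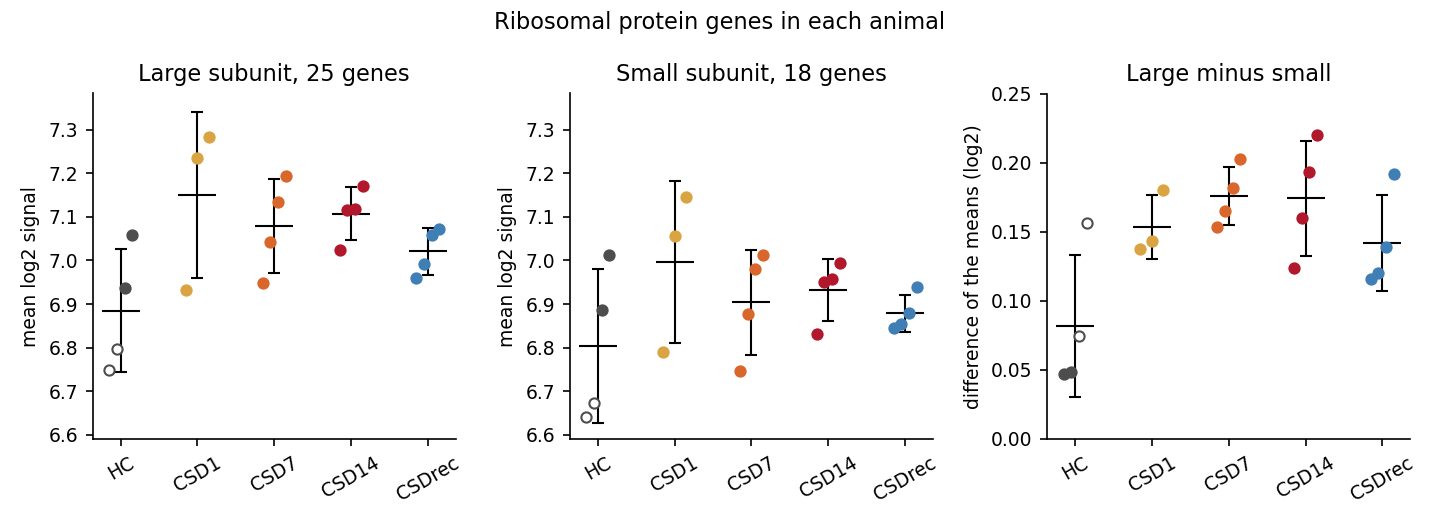
Mean log2 signal of the large subunit genes, of the small subunit genes, and the large minus small difference in each of the 19 animals. Points are animals (open points, HC animals 1 and 2), bars are group mean ± SD. HC animals 5 and 6 lie inside the range of the stressed animals for both subunits, and below all of them for the difference.

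Against HC, 4 members rose in CSD1, 3 each rose in CSD7 and CSD14, none rose in CSDrec, and none fell in any group. The share of all tested rows called higher was 5.84%, 9.04%, 6.87% and 0.0167% in the 4 comparisons, and of the 30254 rows above the receptor level 12.6%, 19.2%, 14.5% and 0.0364%. Of all tested rows 0.96%, 1.96%, 1.03% and 0% were called lower, which makes 6.8%, 11%, 7.9% and 0.0167% in either direction. The share of members called higher was 9.3%, 6.98%, 6.98% and 0%, below that of expressed rows, and these counts do not set the members apart. At an unadjusted p under 0.05 the numbers were 17, 14, 15 and 7 of 43 (39.5%, 32.6%, 34.9% and 16.3%), against 29.7%, 31.8%, 28.8% and 26.3% of all tested rows and 40.5%, 44.3%, 40.5% and 39.5% of expressed rows. By this fit all called genes belong to the large subunit, and 0 of 18 small subunit genes passed in any group. At an unadjusted p under 0.05 it was 5, 4, 4 and 1 small subunit genes, and whether the share differed between subunits was not tested. Some other fits called small subunit genes, as given below. With HC animals 1 and 2 left out, 0 members were called in any group, but of the 65956 rows only 0, 3, 2 and 0 were called higher. This loss of calls thus covered the whole array and does not set the members apart. Leaving out HC animal 1 or HC animal 2 alone also gave 0 calls among the members in each group. Of all tested rows 0, 8, 9 and 4 were higher without HC animal 1, and 0, 0, 341 and 3 without HC animal 2. Leaving out HC animal 6 gave 15, 12, 15 and 6 member calls, of which 5, 2, 4 and 1 were small subunit genes. Leaving out HC animal 5 gave 9, 5, 7 and 1, of which 3, 0, 0 and 0 were small subunit genes. The share of all tested rows called higher then rose as well, to 17.1%, 19.4%, 17.2% and 16% without HC animal 6 and to 14.4%, 16.3%, 14.1% and 12.3% without HC animal 5.

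Over the 43 genes the median difference was 0.21, 0.15, 0.17 and 0.11 in the same order of groups. Over all rows above the receptor level it was 0.23, 0.22, 0.21 and 0.22, and over the 794 rows with a mean above 10 it was 0.18, 0.0056, 0.075 and 0.059. The large subunit median was 0.24, 0.17, 0.21 and 0.13, and that of the small subunit 0.17, 0.095, 0.14 and 0.10. A higher mean than HC in all 4 stress groups was found for 21 of 25 large and 12 of 18 small subunit genes. For all rows this joint count is not given. By single comparison, 97.7%, 86%, 88.4% and 81.4% of members had a higher mean, against 86.7%, 84.5%, 85% and 88.6% of expressed rows. Without HC animals 1 and 2 such a mean was found for 22, 19, 19 and 15 of the large subunit genes. For the small subunit it was 11, 7, 9 and 4, and for expressed rows 20038, 19493, 18943 and 19687 of 30254. Without HC animals 1 and 2 the large subunit medians were 0.14, 0.081, 0.10 and 0.030, and the small subunit medians 0.027, −0.082, 0.0042 and −0.068. Over rows above the receptor level they were then 0.057, 0.056, 0.050 and 0.051.

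**Figure D2:**
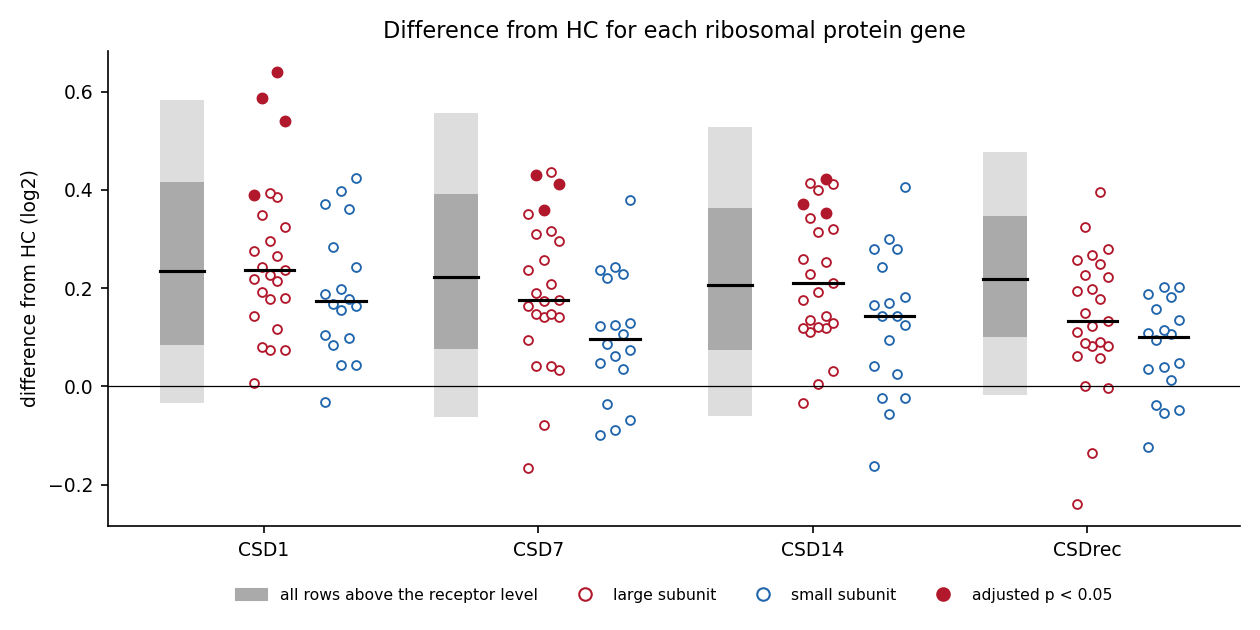
Log2 difference from HC of each of the 25 large and 18 small subunit genes in the 4 stress groups. Filled points passed an adjusted p of 0.05, black lines are medians, and grey bars give the 10th to 90th percentile (light) and the interquartile range (dark) of all rows above the receptor level. Most ribosomal protein genes sit between 0 and 0.4, within the spread of expressed rows, and the only filled points are large subunit genes.

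Rpl8, a large subunit protein that lies near the peptidyl transferase center, had the smallest F-test p of the members. Its signal was 7.93, 8.24, 8.25 and 8.30 in HC animals 1, 2, 5 and 6. In CSD1 animals 4, 18 and 19 it was 8.30, 9.01 and 8.85, and in CSD7 animals 9, 16, 17 and 25 it was 8.58, 8.90, 8.49 and 8.47. CSD14 animals 12 to 15 had 8.45, 8.67, 8.62 and 8.63 and CSDrec animals 28 to 31 had 8.49, 8.43, 8.34 and 8.54. Rpl8 was the only member above all HC animals in each of the 4 stress groups, although CSD1 animal 4 and HC animal 6 were equal to 2 decimals. Its difference from HC was 0.54 (SE 0.14, adjusted p = 0.0377) in CSD1 and 0.43 (SE 0.13, adjusted p = 0.0436) in CSD7, and 0.41 and 0.27 (adjusted p = 0.0582 and 0.2) in CSD14 and CSDrec. Without HC animals 1 and 2 it was 0.45, 0.34, 0.32 and 0.17, with adjusted p from 0.426 to 0.861. The groups did not overlap for 2, 5, 7 and 5 members, all above HC, against 9.78%, 7.47%, 10.1% and 8.38% of all tested rows and 19.5%, 14.8%, 19.5% and 15.6% of expressed rows. None lay wholly below HC, as 6.6%, 2.91%, 2.56% and 1.48% of all tested rows did.

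Rpl38 and Rpl19 were called in CSD14 and kept their size without the 2 arrays that stood apart. Rpl38 encodes a protein of the large subunit surface that in mouse embryos is needed for the translation of certain Hox mRNAs. It read 8.66, 8.60, 8.38 and 8.60 in HC animals 1, 2, 5 and 6, and 8.70, 9.04, 8.88 and 9.12 in CSD14 animals 12 to 15. Its CSD14 and CSDrec animals lay above every HC animal, and CSD1 overlapped HC. Its differences in the 4 stress groups were 0.14, 0.26, 0.37 and 0.26, called only in CSD14 (SE 0.09, adjusted p = 0.0264). Without HC animals 1 and 2 it was 0.21, 0.32, 0.44 and 0.33, with an adjusted p of 0.193 in CSD14. HC animal 5 was the lowest for this gene, and the CSD14 difference without it was 0.31 (adjusted p = 0.0295).

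Rpl19, a large subunit protein widely used as a reference transcript, read 7.58, 7.64, 7.48 and 7.69 in HC animals 1, 2, 5 and 6. In CSD14 animals it spanned 7.81 to 8.02, and CSD7, CSD14 and CSDrec each lay wholly above HC. The difference was 0.33, 0.31, 0.35 and 0.28, called only in CSD14 (SE 0.11, adjusted p = 0.0489), and 0.34, 0.32, 0.36 and 0.29 without HC animals 1 and 2. Its adjusted p then ran from 0.406 to 0.673. HC animal 5, which stays in that setting, was the lowest for this gene too. With 1 animal left out at a time, the CSD14 call held in 3 of 19 cases.

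Rplp0, the base of the stalk that recruits elongation factors to the large subunit, read 8.03, 8.24, 8.32 and 8.46 in HC animals 1, 2, 5 and 6. It read 8.44, 8.86 and 8.65 in CSD1 animals 4, 18 and 19. CSD1 overlapped HC through animal 4, and CSD14, at 8.49 to 8.66, lay above all HC animals. It rose by 0.39 in CSD1 (SE 0.11, adjusted p = 0.0467) against a difference of 0.26 without HC animals 1 and 2 (adjusted p = 0.561). In CSD7, CSD14 and CSDrec the difference was 0.32, 0.32 and 0.19, and 0.19, 0.19 and 0.07 without them. The other stalk proteins, Rplp1 and Rplp2, have no row of their own.

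Rpl4, which lines the exit tunnel of the large subunit, read 9.91, 9.83, 10.03 and 10.15 in HC animals 1, 2, 5 and 6. In CSD7 it was tight, at 10.31 to 10.37, and wholly above HC. It rose by 0.36 in CSD7 (SE 0.10, adjusted p = 0.0296), and the difference was 0.25 without HC animals 1 and 2 (adjusted p = 0.493).

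Rpl7l1, a paralog of Rpl7 whose yeast counterpart acts in large subunit assembly, had the highest difference of all members. It read 5.96, 6.18, 6.78 and 6.87 in HC animals 1, 2, 5 and 6, and 6.76, 7.24 and 7.25 in CSD1 animals 4, 18 and 19. The low HC values were those of animals 1 and 2, and CSD1 animal 4 lay below both other HC animals. It rose by 0.64 in CSD1 (SE 0.18, adjusted p = 0.0416), and the difference was 0.26 without HC animals 1 and 2 (adjusted p = 0.599). In CSD7, CSD14 and CSDrec the difference went from 0.44, 0.40 and 0.32 to 0.06, 0.02 and −0.05 in the same step. Rpl7 itself differed by 0.18, 0.04, 0.03 and −0.00, and by 0.14, 0.00, −0.01 and −0.04 without them.

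Rpl27 rose by 0.59 in CSD1 (SE 0.16, adjusted p = 0.0401), and the difference was 0.31 without HC animals 1 and 2 (adjusted p = 0.589). It read 7.83, 7.75, 8.202 and 8.49 in HC animals 1, 2, 5 and 6 and 8.32, 8.83 and 8.81 in CSD1 animals 4, 18 and 19. The row used for Rpl27 has an ID that names chromosome 18, while RefSeq places the gene on chromosome 11. This holds for 6 members in all (Rpl7a, Rpl12, Rpl27, Rpl31, Rpl35 and Rpl41), while 99.6% of 22408 rows with 1 symbol name the chromosome of their gene, so for these 6 the row may read a processed copy. A second Rpl27 row, on chromosome 11, differed by 0.42, 0.25, 0.22 and 0.17, and was called in CSD1 (adjusted p = 0.0408). The own-chromosome rows of Rpl7a, Rpl35 and Rpl41 differed by 0.36, 0.18 and 0.35 in CSD1, with no call. Rpl12 and Rpl31 have no such row. Rpl6l, a pseudogene in RefSeq that resembles Rpl6, rose in CSD7 and CSD14 by 0.41 and 0.42 (adjusted p = 0.042 and 0.0448), with 0.39 and 0.40 in CSD1 and CSDrec. The differences in CSD7 and CSD14 without HC animals 1 and 2 were 0.25 and 0.26. Rpl6 differed by 0.18, 0.16, 0.13 and 0.12 with all HC animals and by 0.12, 0.11, 0.08 and 0.06 without those 2, with no call. Near-identical copies can share probes, so which copy was read is uncertain.

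**Figure D3:**
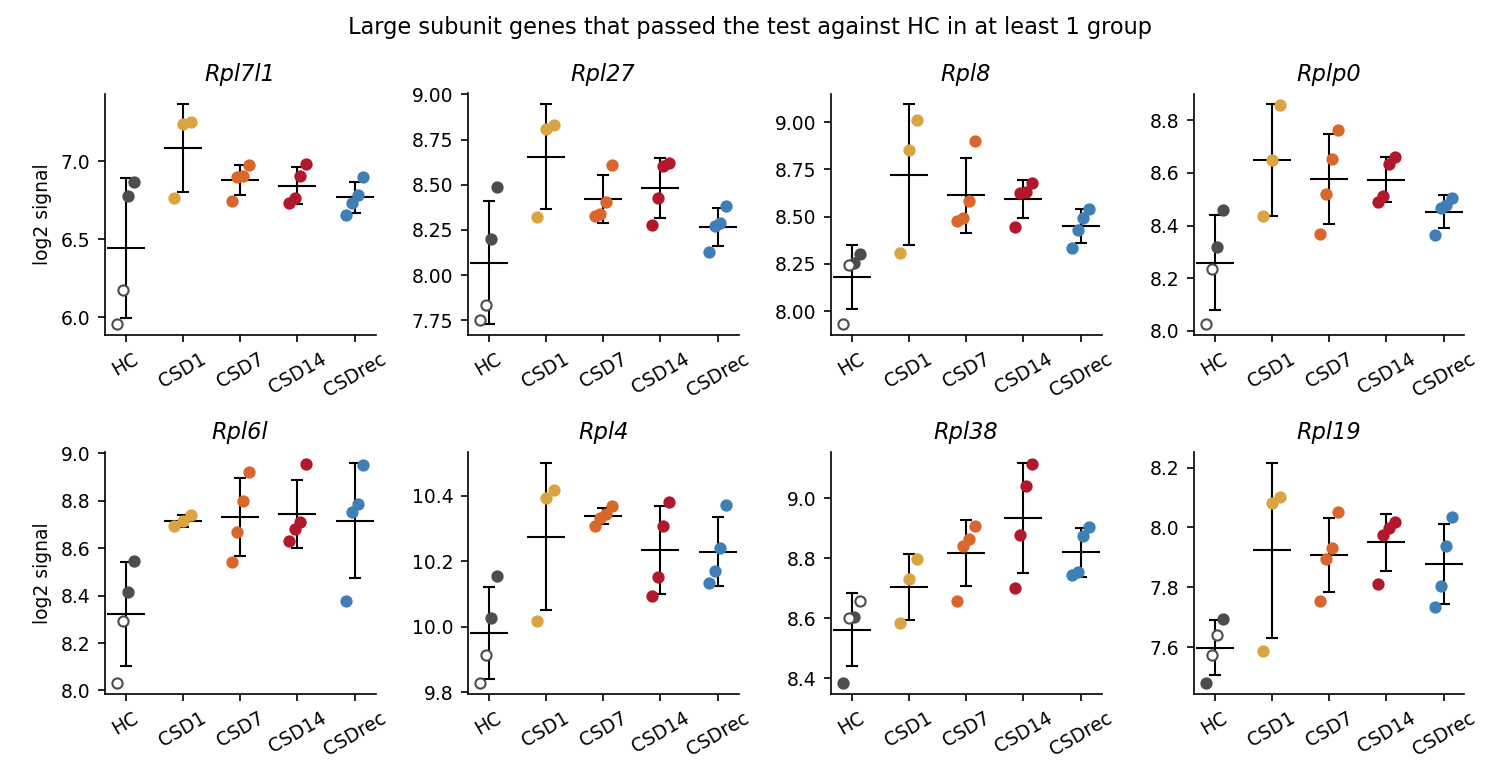
Log2 signal in each animal of the 8 large subunit genes that passed the test against HC in at least 1 group. Points are animals (open points, HC animals 1 and 2), bars are group mean ± SD, and each panel has its own axis. For Rpl7l1 and Rpl27 the low HC values are those of the 2 open points, while for Rpl38 and Rpl19 the lowest HC value is that of animal 5.

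In the small subunit, 12 genes had positive differences in every group without a call, among them Rps9, Rps26, Rps29, Rps15 and Rpsa. Rps9, a protein at the mRNA entry of the small subunit, came closest at 0.36 in CSD1 (SE 0.11, adjusted p = 0.055). It read 4.62, 4.63, 4.78 and 4.96 in HC animals 1, 2, 5 and 6 and 4.81, 5.31 and 5.21 in CSD1 animals 4, 18 and 19, so the groups overlapped. Its differences without HC animals 1 and 2 were 0.24, 0.11, 0.16 and 0.01. It was called (adjusted p = 0.0398) when rows below the receptor level were left out. Rps26, at the mRNA exit, differed by 0.43, 0.38, 0.41 and 0.20, and by 0.15, 0.10, 0.13 and −0.08 without HC animals 1 and 2. Rpsa, which also serves as a laminin receptor, differed by 0.37, 0.24, 0.24 and 0.11, and by 0.21, 0.09, 0.09 and −0.05 without these animals. Rps19, a gene mutated in Diamond-Blackfan anemia, differed by 0.19, 0.09, 0.18 and 0.20, and by 0.02, −0.08, 0.02 and 0.03 without them. Of the 12 genes, Rps26, Rpsa and Rps19 thus had a sign that turned in at least 1 group. So did Rps7, Rps10, Rps18, Rps24, Rps28 and Rps3a3, while Rps9, Rps15 and Rps29 stayed positive in every group.

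In 5 other small subunit genes the differences lay closer to 0 or changed sign between groups. Rps3a1, which binds initiation factors, was the only member whose mean was below HC in all 4 groups, with differences of −0.03, −0.10, −0.16 and −0.12 and no call. It read 9.21, 9.24, 9.15 and 9.22 in HC animals 1, 2, 5 and 6, 8.91, 9.36 and 9.25 in CSD1 animals 4, 18 and 19, and 8.90 to 9.16 in CSD14. HC animals 1 and 2 did not stand apart for this gene, and without them the differences were −0.01, −0.08, −0.14 and −0.11. Its pseudogenes Rps3a2 and Rps3a3 differed by −0.02 and 0.04 in CSD14, and both by −0.19 without HC animals 1 and 2. Rps4x, the X-linked Rps4, differed by 0.10, −0.09, −0.06 and −0.05, and Rps20 by 0.04, −0.07, −0.02 and 0.01. Rps14, which is lost in the human 5q− syndrome, differed by 0.08, −0.04, 0.03 and −0.04. These 3 genes without HC animals 1 and 2 were below HC in all 4 groups, by −0.04, −0.23, −0.20 and −0.19 for Rps4x, −0.06, −0.17, −0.12 and −0.09 for Rps20, and −0.07, −0.19, −0.12 and −0.19 for Rps14, again with no call.

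Since a ribosome needs both subunits, their difference within an animal was set out, which removes any shift common to both. The large minus small difference was 0.157, 0.0745, 0.0487 and 0.0467 in HC animals 1, 2, 5 and 6. It was 0.143, 0.137 and 0.18 in CSD1 animals 4, 18 and 19, and 0.154, 0.182, 0.202 and 0.165 in CSD7 animals 9, 16, 17 and 25. It was 0.193, 0.16, 0.124 and 0.22 in CSD14 animals 12 to 15 and 0.120, 0.139, 0.116 and 0.192 in CSDrec animals 28 to 31. Group means were 0.0816 ± 0.0515 (SD, n = 4) in HC, 0.154 ± 0.0231 (n = 3) in CSD1, 0.176 ± 0.0211 (n = 4) in CSD7, 0.174 ± 0.0416 (n = 4) in CSD14 and 0.142 ± 0.0348 (n = 4) in CSDrec. HC animals 2, 5 and 6 lay below all 15 stressed animals, whose lowest value was 0.116, and HC animal 1 lay among them, with 8 of 15 above it. The value depends on which genes have a row of their own and is given with no test. Over 127 large and 68 small subunit rows with -ps names above the receptor level, the same difference was 0.436 to 0.645 in HC, 0.507 to 0.547 in CSD1, 0.478 to 0.726 in CSD7, 0.481 to 0.643 in CSD14 and 0.553 to 0.641 in CSDrec, so in those rows the groups overlapped.

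**Figure D4:**
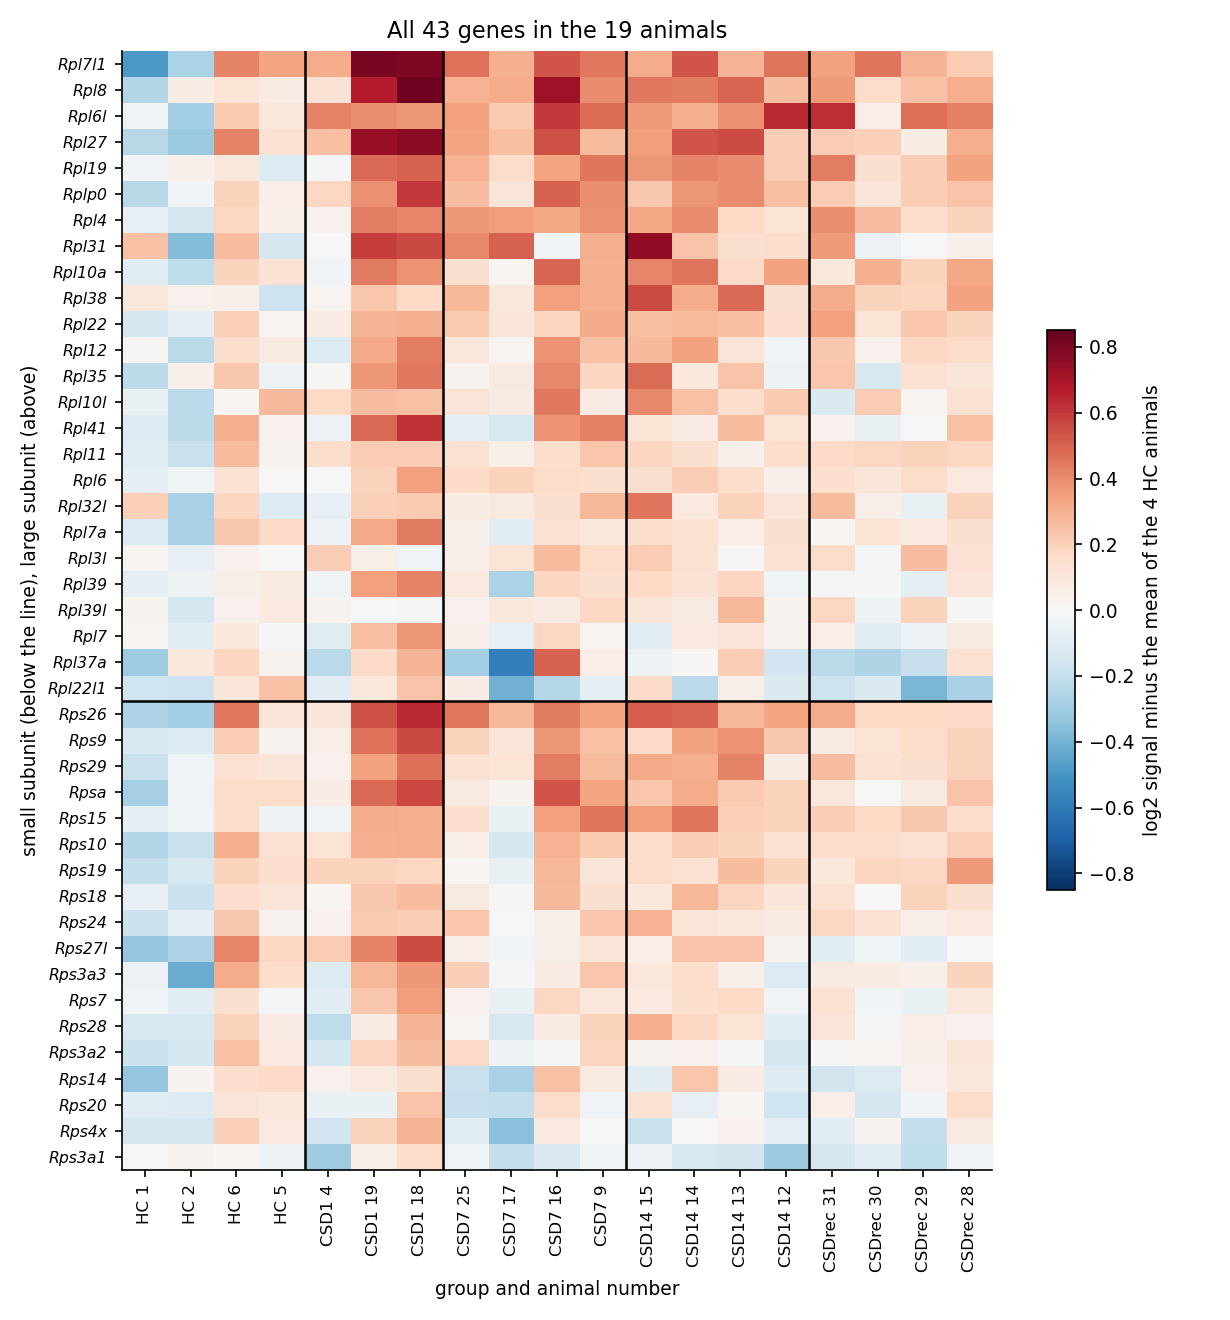
Log2 signal minus the mean of the 4 HC animals for the 43 genes (rows, large subunit above the line and small subunit below, each ordered by the mean difference over the 4 stress groups) in the 19 animals (columns). CSD1 animals 18 and 19 are the reddest columns, CSD1 animal 4 and HC animals 1 and 2 are paler or blue, and the lowest small subunit rows are Rps4x and Rps3a1.

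Along the course of defeat, 0 members and 0% of all tested rows differed between CSD7 and CSD1, CSD14 and CSD7, CSD14 and CSD1, or CSDrec and CSD14 (limma; at an unadjusted p under 0.05, 1, 0, 1 and 0 members). The median difference over the 43 genes was −0.067 from CSD1 to CSD7, 0.031 from CSD7 to CSD14 and −0.072 from CSD14 to CSDrec. From CSD1 to CSD7 36 of 43 members had a lower mean (83.7%), as did 80.1% of rows with a mean above 10 and 52.1% of expressed rows. From CSD14 to CSDrec it was 35 of 43 (81.4%), against 71.3% and 51.2%. The F-test over the 4 differences from HC called 0 members (11 at an unadjusted p under 0.05) and 0.555% of all rows, with the lowest adjusted p for Rpl8 (0.117), then Rpl38 (0.121) and Rpl6l (0.135).

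Paralogs that replace a standard protein in some tissues are described next, beside their parent gene where it has a row. Rps27l, a target of p53, read 5.94, 6.27 and 6.14 in CSD1 animals 4, 18 and 19, 5.70 to 5.82 in CSD7, 5.75 to 5.96 in CSD14 and 5.62 to 5.72 in CSDrec. All CSDrec values lay below all CSD1 values, and the HC animals spanned 5.39 to 6.13. Its difference from HC was 0.40, 0.05, 0.14 and −0.06, with HC animals 1 and 2 the lowest at 5.39 and 5.46, and without them 0.10, −0.25, −0.15 and −0.35. The difference of CSD7 from CSD1 was −0.35 (SE 0.14, unadjusted p = 0.0196, limma adjusted p = 1.00). Rpl22l1, the paralog that Rpl22 represses in mouse, differed by 0.08, −0.17, −0.03 and −0.24, and by −0.09, −0.34, −0.21 and −0.41 without HC animals 1 and 2. Rpl22 itself differed by 0.22, 0.21, 0.23 and 0.22, with adjusted p from 0.0826 to 0.117, and by 0.11, 0.10, 0.12 and 0.11 without them. The germline or muscle paralogs Rpl10l, Rpl39l and Rpl3l were near the receptor level, at means of 3.92, 3.45 and 3.29, with no call. Rpl22l1 was also near that level, at a mean of 3.87. Rpl39 differed by 0.24, 0.03, 0.11 and −0.00, and by 0.18, −0.03, 0.05 and −0.06 without HC animals 1 and 2. Rpl11, which with Rpl5 forms the 5S particle that restrains Mdm2, differed by 0.19, 0.14, 0.13 and 0.18, and by 0.04, −0.01, −0.02 and 0.03 without them. The members that varied most within groups were Rpl37a, Rpl31 and Rpl7l1, with SDs of 0.28, 0.27 and 0.25.

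Other genes of the translation system are described for comparison by their counts and medians, to be read against the 12.6%, 19.2%, 14.5% and 0.0364% of expressed rows called higher in the 4 groups. Of 25 initiation factor genes with a row, 9, 10, 10 and 0 rose in CSD1, CSD7, CSD14 and CSDrec, with medians of 0.39, 0.32, 0.35 and 0.33. Examples are Eif3l, a subunit of the eIF3 complex (0.75, 0.72 and 0.71 in CSD1, CSD7 and CSD14), and Eif3b, its scaffold (0.65, 0.57 and 0.57). Of 9 elongation and release genes 1, 3, 2 and 0 rose, with medians of 0.39, 0.39, 0.26 and 0.33, among them Eef2k, the kinase that slows elongation (0.59, 0.65 and 0.55), and Eef2, its target (0.39 and 0.38 in CSD7 and CSD14). Of 34 ribosome biogenesis genes 6, 6, 5 and 0 rose, with medians of 0.40, 0.34, 0.28 and 0.36, such as Pes1 (0.78, 0.68 and 0.57) and Polr1c, a subunit shared by RNA polymerases I and III (0.57, 0.54 and 0.53). Of 13 growth regulators 3, 9, 5 and 0 rose, with medians of 0.49, 0.54, 0.46 and 0.33, such as Mtor (0.67, 0.71 and 0.66) and Maf1, the repressor of RNA polymerase III (0.63, 0.60 and 0.58). Tsc2, an inhibitor of mTOR signaling, rose as well (0.68 and 0.69 in CSD7 and CSD14).

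The mitochondrial ribosome, whose proteins are encoded by a separate gene family, was covered by 74 genes, of which 19, 22, 10 and 0 rose, with medians of 0.38, 0.33, 0.31 and 0.25. Mrpl49 (0.99, 0.97 and 0.89) and Mrpl58 (0.68, 0.69 and 0.66) are examples. Of 5 non-ribosomal TOP and small nucleolar RNA host genes, only Btf3 in CSD7 passed (0.33), and their medians were 0.22, 0.20, 0.11 and 0.17. Of the other products of the cytosolic ribosome only Fau had a row, with 0.22, 0.27, 0.35 and 0.09 and no call. No gene of any of these lists fell. Without HC animals 1 and 2 only 0, 3, 2 and 0 of all tested rows were higher, and no gene of these lists was called. The medians were then 0.13, 0.10, 0.12 and 0.054 for initiation. They were 0.16, 0.094, 0.061 and 0.0083 for elongation, 0.10, 0.030, 0.0036 and 0.055 for biogenesis, and 0.10, 0.13, 0.20 and 0.15 for growth regulators. They were 0.047, 0.032, −0.0078 and 0.047 for the TOP and host genes and 0.11, 0.053, 0.048 and −0.034 for the mitochondrial ribosome. The large subunit medians without these animals, given above, then exceeded those of biogenesis and the mitochondrial ribosome in CSD1, CSD7 and CSD14. They were below those of elongation in CSD1 and CSD7, and below those of initiation and growth regulators in CSD7, CSD14 and CSDrec. The small subunit medians were below those of all these lists in CSD1, CSD7 and CSDrec.

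**Figure D5:**
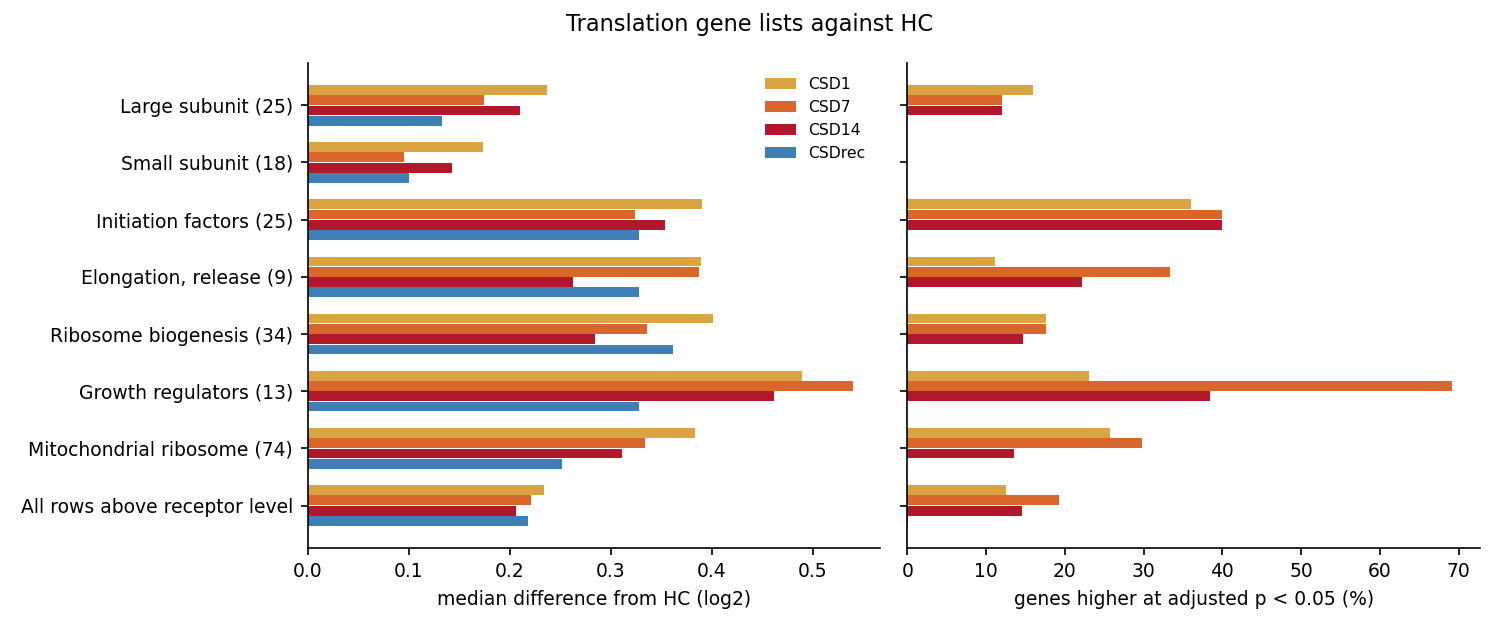
Median log2 difference from HC (left) and share of genes higher at an adjusted p below 0.05 (right) for both cytosolic subunits, 5 other translation lists and all rows above the receptor level. Bars are the 4 stress groups and numbers in parentheses are genes with a row. With all HC animals both cytosolic subunits have lower medians than the 5 other lists plotted. Without HC animals 1 and 2 this order does not hold for the large subunit. For the small subunit it holds in CSD1, CSD7 and CSDrec. On the right no list has a gene called in CSDrec.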

How the data were processed

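The deposited table holds log2 values. Per the methods, the authors applied RMA background correction, quantile normalization and median polish of probe sets in the Partek software, while the labels name Affymetrix Expression Console and an array type other than Clariom D. No genome build is stated in the labels or methods. Values were used as deposited, and the SD still differed between arrays. Control rows (6732) were left out and 65956 rows tested.

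Rows were fitted with limma 3.58.1 in R 4.3.3 over 19 arrays in 5 groups (14 residual degrees of freedom), with no covariates, and the fit was checked on simulated data. Each array is 1 animal, and the number of arrays limits precision. Named genes are those called or with the 3 largest differences, genes with set roles, paralogs and their parents, the extremes of mean and SD, the 3 smallest F-test p, and 2 to 4 genes per list. Rpl6, Rps3a1, Rps3a2, Rps3a3, Rps7, Rps9, Rps10, Rps14, Rps15, Rps18, Rps20, Rps24, Rps26, Rps28 and Rps29 were added with their values known. The members and lists were chosen with earlier results of these data known. Alternatives were other normalizations, filters, weights, row choices and left-out arrays.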

Additional observations from a re-analysis of the deposited data

Results flagged for a closer look

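In 4 of 108 groups of 4 animals a single value stood apart by Dixon's test, which is no more than the 1 in 20 groups that chance gives. The gap to the nearest animal, as a share of the range of the group, was 0.849 for Rpl8 in HC, where animal 1 was low. It was 0.897 for Rpl10l in CSD7 (animal 16 high), 0.884 for Rpl22 in CSD14 (animal 12 low) and 0.848 for Rpl37a in CSDrec (animal 28 high).

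Rows left out by the naming rule also held calls. Of 209 rows with -ps names, 22 were higher in CSD1, 13 in CSD7 and 8 in CSD14, and 1 was lower in CSD14. These are 10.5%, 6.22% and 3.83%, against 5.84%, 9.04% and 6.87% of all tested rows and 12.6%, 19.2% and 14.5% of expressed rows. Of 53 rows that carry several symbols, one of them ribosomal, 8, 3 and 5 were higher in the same groups (15.1%, 5.66% and 9.43%). None of either kind was called in CSDrec, and none was called in any group without HC animals 1 and 2. In that setting 0, 3, 2 and 0 of all tested rows were higher in CSD1, CSD7, CSD14 and CSDrec.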

How the results depend on the processing

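No paired analysis was possible because the animal numbers in the labels are unique and no groups share one. The large minus small difference of the members kept its sign against HC in every alternative tried, but several of these could not change it. Centring an array moves both subunits alike. Leaving out any 1 animal keeps the HC mean below the lowest stressed value of 0.116. In the -ps rows described above, the mean difference was lower in CSD1 than in HC. The calls did not keep: quantile normalization of the deposited values, leaving out HC animals 1 and 2, and fits of the 2 groups compared each gave 0 members higher in CSD1, CSD7 and CSD14. Of all tested rows, 0, 96 and 413 were higher in these groups with quantile normalization. It was 0, 3 and 2 rows without HC animals 1 and 2, and 0, 0 and 14 in the fits of 2 groups. With quantile normalization the medians of all members were −0.11, −0.11, −0.047 and −0.090 in CSD1, CSD7, CSD14 and CSDrec, those of the large subunit −0.034, 0.012, 0.025 and −0.012, and those of the small subunit −0.17, −0.20, −0.15 and −0.18. Without HC animals 1 and 2 the median turned to −0.020 for all members in CSDrec and to −0.082 and −0.068 for the small subunit in CSD7 and CSDrec.

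Each array centred on its rows above the receptor level, an alternative chosen after seeing the data, gave medians of −0.048, −0.12, −0.061 and −0.14 for all members, −0.025, −0.088, −0.020 and −0.11 for the large and −0.089, −0.17, −0.087 and −0.15 for the small subunit. It left 1 member higher in CSD1 (Rpl7l1), 0 higher in CSD7 and CSD14, and 4 lower in CSD7 (Rpl22l1, Rps20, Rps3a1 and Rps4x), where 31.8% of all rows were lower. Array weights gave CSD1 animal 19 a weight of 9.91 and HC animals 1 and 2 weights of 0.171 and 0.113. They called 17 members higher in CSD1 (10.1% of all rows), 4 of them small subunit genes. They called 0 in CSD7 (0.749%) and 1 in CSD14 (Rpl38, 1.9%). Between stress groups they called 12, of which 11 were lower in CSD14 than in CSD1, as were 4.98% of all rows, with 5.07% higher. By the F-test they called 19 members. The share of all rows is not given for that test, so this count cannot be read as particular to the members. The small subunit median was then −0.076 in CSD7 and −0.012 in CSDrec. Without rows below the receptor level 5 were called in CSD7 and 5 in CSD14, where 25.1% and 20.2% of the rows left were higher. The cause of these shifts was not tested.

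Leaving out 1 animal at a time, calls ranged from 0 to 15 in CSD1, 0 to 12 in CSD7, 0 to 15 in CSD14 and 0 to 6 in CSDrec. By the F-test they ranged from 0 to 7, again without the share of all rows. Calls against HC are set beside such shares here and above. Calls in CSD1 fell to 0 without CSD1 animal 18 or 19, where 0% of all rows were higher. They rose to 14 without CSD1 animal 4, 4 of them small subunit genes, where 6.65% of all rows were higher. Calls in CSD7 fell to 0 without animal 9, 16 or 17, where 5.34%, 1.66% and 1.85% of all rows were higher. Those in CSD14 fell to 0 without animal 13, 14 or 15, where it was 0.605%, 1.85% and 2.77%. The large subunit median in CSD1 ranged from 0.18 to 0.38. The row on the gene's own chromosome, the mean of all rows of a gene and leaving out the 3 pseudogenes kept the counts within 1.5 times. A one-way analysis of variance without moderation, the type of test the methods name, was run on the 65956 deposited rows. It called 0 members and 0 rows after Benjamini-Hochberg adjustment, with 10 members at an unadjusted p under 0.05. The paper reports differentially expressed genes from its own analysis of variance in Partek. Its result was thus not reproduced here, and the cause of the difference was not tested. Of the 10 calls of single genes, Rpl8 in CSD1 held without 1 animal in 15 of 19 cases, Rpl38 in CSD14 and Rpl4 in CSD7 in 14, Rpl27 in 8, and the others in 3 to 6.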
